A study of Danio rerio with 3 samples.

Results

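The cells described here were the putative excitatory hindbrain neurons found among dissociated cells from around the ear of zebrafish embryos. A cell was taken when it held 500 to 6499 detected genes and under 5% of its UMIs (unique molecular identifiers, each standing for 1 captured transcript) in mitochondrial genes, and had at least 3 UMIs of elavl3 and at least 1 UMI of slc17a6a and slc17a6b together. It also had to have 0 UMIs of gad1b, gad2, slc32a1, slc6a5, isl1, six1b and eya1. This rule found 253 excitatory neurons among 23453 cells that passed the same limits on genes and mitochondrial UMIs. Of these, 47 of 6672 cells came from the mutant library, 84 of 8233 from the heterozygote library and 122 of 8548 from the wild-type library.

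The study asked what the homeobox gene shox2 does in the developing inner ear, and the dissection that gave these cells also took in tissue next to the otic vesicle. The mutant library (shox2Δ/Δ) came from GFP-negative embryos of an incross of fish carrying shox2 Gal4 over the deletion allele with UAS:GFP, the heterozygote library was labelled shox2Δ/+, and the wild-type library (shox2+/+) came from embryos with both the neurog1:dsRed and the neurod1:EGFP reporters. All 3 libraries were labelled as inner ear with surrounding tissue at about 22 hours after fertilisation, and each pooled embryos of 1 genotype. The paper, however, describes embryos collected at several stages up to that age and combined by genotype. How the stages were mixed in each library is not known. The dissection was meant to avoid the hindbrain. Genotype, transgenes and library therefore changed together, there was 1 library per condition, and differences between libraries are given below as values with counting intervals and without a test.

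Excitatory neurons of the vertebrate brainstem release glutamate, which the vesicular transporters encoded by slc17a6a and slc17a6b load into synaptic vesicles. Inhibitory neurons release GABA, made by the enzymes of gad1b and gad2, or glycine, taken up by the transporter of slc6a5, and both load these through the vesicular transporter of slc32a1. Elavl3 is an RNA-binding protein of early neurons. In hindbrain and spinal cord, progenitor domains along the dorsoventral axis give rise to neuron classes that are told apart by homeodomain and related transcription factors, and Hox genes mark their position along the body axis. Isl1, six1b and eya1 mark motor and placodal sensory neurons, which also use glutamate or share slc17a6 genes, and they were used to keep ganglion neurons out.

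By the rule, elavl3 stood at 2618 CPM (counts per 1000000 UMIs of the summed cells) in mutant, 2792 CPM in heterozygote and 2954 CPM in wild-type excitatory neurons. The sum of slc17a6a and slc17a6b was 361 CPM in the mutant library, 341 CPM in the heterozygote library and 308 CPM in the wild-type library, most of it slc17a6b. These values chose the cells and are given as a description. Just outside the rule, 6 mutant, 2 heterozygote and 2 wild-type cells met every other condition with 2 UMIs of elavl3, and just inside it 3 mutant, 2 heterozygote and 1 wild-type cells had exactly 3. A single UMI of the transporters carried the call in 10 of 47 mutant, 21 of 84 heterozygote and 33 of 122 wild-type excitatory neurons.

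The excitatory neurons were sequenced to a median of 24787 UMIs per cell in the mutant library, 20032.5 in the heterozygote library and 17351.5 in the wild-type library, so a rare transcript was more easily seen in mutant cells. Shares of cells with a gene are therefore also given after each cell was thinned to 3000 UMIs, which left out 1 mutant, 2 heterozygote and 1 wild-type neurons with fewer. Thinning was 1 random draw per setting, and the intervals of thinned shares leave out the spread between draws. Cell barcodes recurred between libraries: 1497 between mutant and heterozygote, 2083 between mutant and wild type and 1089 between heterozygote and wild type. The deeper of the paired cells held a median of 62.4, 38.4 and 73.4 times the UMIs of the shallower one in these 3 pairs of libraries. No barcode was an excitatory neuron in more than 1 library, and only 1 of them, in the heterozygote library, had at least 10 times fewer UMIs than the same barcode elsewhere. A shared barcode was carried by 13 mutant, 4 heterozygote and 40 wild-type excitatory neurons, which were deeper than the rest (median 42052 UMIs against 21322.5 in the mutant library). Some of the results that changed without them are named below, and others are only counted.

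The position of these neurons was checked against marker genes that the rule did not use. At least 1 UMI of a Hox gene of paralog groups 1 to 5, which mark hindbrain and anterior spinal cord, was found in 44 of 47 mutant, 63 of 84 heterozygote and 105 of 122 wild-type excitatory neurons. After thinning the share was 54.3% in the mutant, 56.1% in the heterozygote and 63.6% in the wild-type library. In endothelium-like cells of the same 3 libraries it was 49.7%, 42.1% and 34.3%. In this random draw of UMIs, 25 of 46 mutant cells had a Hox UMI, close to the share of a cell type outside the nervous system. A new draw without the 8% deepest cells gave 28 of 39 mutant cells, so 1 draw does not settle how close these shares are. The Hox code itself was strongest in hoxb3a, which is expressed from the posterior hindbrain backwards, with 308 CPM in mutant, 333 CPM in heterozygote and 357 CPM in wild-type excitatory neurons. Genes of Hox groups 6 to 10, which mark the trunk spinal cord, were seen in 1 mutant, 1 heterozygote and 5 wild-type cells. The list for groups 1 to 5 also named hoxc6b, a gene of group 6, and was kept as fixed. A UMI of otx1, otx2a, otx2b, foxg1a or emx2, genes of forebrain and midbrain, was present in 6 mutant, 16 heterozygote and 1 wild-type excitatory neurons, and 7 of the 16 heterozygote cells had no Hox UMI. Those 5 genes were chosen after their values were seen from a list of 18 forebrain and midbrain genes, of which at least 1 UMI was found in 24 mutant, 42 heterozygote and 45 wild-type cells. After thinning the share for the 18 genes was 30.4% in the mutant, 30.5% in the heterozygote and 25.6% in the wild-type library, against 17.1%, 18.2% and 13.3% in endothelium-like cells. For a list of 9 retina genes it was 34.8%, 35.4% and 29.8% in the mutant, heterozygote and wild-type excitatory neurons, against 0.518%, 0.357% and 0% in endothelium-like cells. That list holds pou4f2, which dorsal hindbrain neurons also use and which had UMIs in 16 mutant, 32 heterozygote and 35 wild-type excitatory neurons. A list of 19 sensory ganglion genes, which holds tlx2 and pou4f1, was also common. After thinning its share was 54.3% in mutant, 58.5% in heterozygote and 52.9% in wild-type excitatory neurons. In endothelium-like cells of these libraries it was 21.2%, 19.6% and 22.3%. The markers thus did not place each cell in the hindbrain, and the cells are called excitatory neurons by their rule from here on. Of a list of 8 motor neuron genes, at least 1 UMI was found in 5 mutant, 6 heterozygote and 10 wild-type cells. Chata, the acetylcholine-making enzyme, had UMIs in 0 mutant, 0 heterozygote and 2 wild-type cells, and mnx1 in 0 mutant, 0 heterozygote and 1 wild-type cells. The rule required 0 UMIs of isl1, a motor neuron marker, so low values of these genes were partly set in advance.

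Excitatory neurons were 3.63% of elavl3 neurons in the mutant library (95% exact binomial interval 2.68 to 4.80%), 5.30% in the heterozygote library (4.25 to 6.52%) and 5.10% in the wild-type library (4.26 to 6.06%). Inhibitory neurons, defined by the same elavl3 minimum with a UMI of a GABA or glycine gene and none of slc17a6, made up 5.03% in the mutant, 4.42% in the heterozygote and 3.81% in the wild-type library. The excitatory share was the lowest and the inhibitory share the highest of the 3 in the mutant library, with intervals of both that overlapped between all libraries. The place of the inhibitory share turned at equal depth: with the rule applied to cells thinned to 3000 UMIs it was 5.32% in the mutant, 6.12% in the heterozygote and 7.24% in the wild-type library, and with at least 2 slc17a6 UMIs and the same minimum for the inhibitory genes it was 2.63%, 2.97% and 2.72%. Of all cells that passed, excitatory neurons were 0.704% in the mutant (0.518 to 0.936%), 1.02% in the heterozygote (0.815 to 1.26%) and 1.43% in the wild-type library (1.19 to 1.70%), where the mutant and wild-type intervals did not overlap. Elavl3 neurons as a whole were 19.4% of those cells in the mutant, 19.2% in the heterozygote and 28.0% in the wild-type library. Only 9 mutant, 3 heterozygote and 5 wild-type neurons carried both transmitter types and none of isl1, six1b and eya1. Most elavl3 neurons showed no transmitter gene and none of isl1, six1b and eya1, namely 65.9% in the mutant, 70.08% in the heterozygote and 63.7% in the wild-type library. Further neurons without a transmitter gene could have isl1, six1b or eya1 and are not in these values. The shares of excitatory neurons therefore count detected and not all excitatory neurons. The intervals cover counting error only, and with pooled embryos the spread between embryos is unknown.

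**Figure D1:**
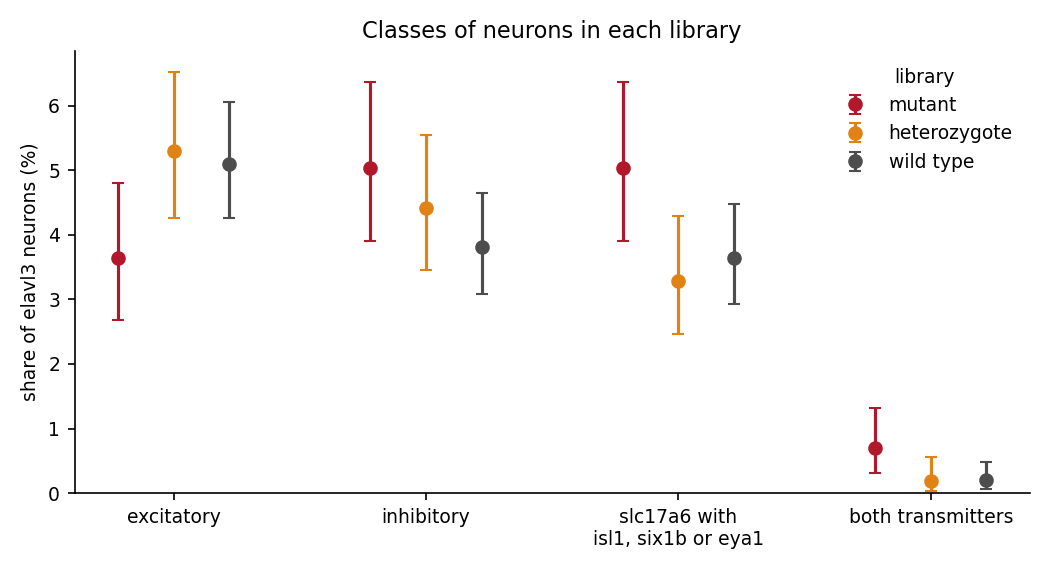
Share of elavl3 neurons in percent (vertical axis) that met the rule for excitatory neurons, inhibitory neurons, slc17a6 neurons with isl1, six1b or eya1, and neurons with both transmitter types, in the mutant, heterozygote and wild-type libraries. Apart from the slc17a6 neurons with isl1, six1b or eya1, the classes had no UMI of those genes. Points are shares and bars 95% exact binomial intervals; the excitatory share was 3.63% in the mutant, 5.30% in the heterozygote and 5.10% in the wild-type library, with overlapping intervals.

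To see what else distinguished the 253 excitatory from the 226 inhibitory neurons of all libraries, UMIs were summed per library and class. The sums were compared with the library as a block, leaving out the 10 genes of the rule. Transcription factors of dorsal excitatory classes, and a few neuropeptide genes, were among those that led the excitatory side. Transcription factors of V1, dI6 and other inhibitory classes led the inhibitory side. By edgeR's quasi-likelihood test with Benjamini-Hochberg adjustment, 1028 of 8073 genes (12.7%) were higher and 1269 (15.7%) were lower in excitatory neurons at an adjusted p under 0.05. The 3 libraries serve as replicates, and since they differ in genotype, the p-values measure how steady a difference between the classes was across them.

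Shox, the paralog of shox2, had 58.4 CPM in mutant, 50.8 CPM in heterozygote and 50.3 CPM in wild-type excitatory neurons, against 0 UMIs in the inhibitory neurons of every library. This made it at least 87.6-fold higher when the inhibitory class was set to 3 UMIs. Lhx9, a LIM-homeodomain factor of the neurons born from the atoh1 domain, had 44.2 CPM in mutant, 129 CPM in heterozygote and 169 CPM in wild-type excitatory neurons, against 0.628 CPM in mutant and 0 in heterozygote and wild-type inhibitory neurons. Its log2 fold change was 8.65 ± 0.53 (SE, adjusted p = 0.0013). No excitatory value of shox or lhx9 overlapped an inhibitory one. Nrn1a encodes neuritin, a membrane-anchored protein that promotes neurite growth, and it was by far the most abundant of the leading genes, with 882 CPM in mutant, 996 CPM in heterozygote and 775 CPM in wild-type excitatory neurons, against 3.14 CPM, 9.58 CPM and 0.541 CPM in the inhibitory neurons of the same libraries (log2 fold change 7.66 ± 0.45). It was found in 42 mutant, 74 heterozygote and 110 wild-type excitatory neurons.

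Adcyap1b, which encodes the neuropeptide PACAP, was also broad, with UMIs in 28 mutant, 50 heterozygote and 76 wild-type excitatory neurons. It stood at 272 CPM in the mutant, 242 CPM in the heterozygote and 308 CPM in the wild-type library, against 0.628, 1.92 and 2.71 CPM in the inhibitory neurons of those libraries (log2 fold change 7.14 ± 0.27, adjusted p = 0.00034). Lhx2b, another LIM-homeodomain factor, was higher by 6.36 ± 0.36 on the log2 scale, and drgx, a homeodomain factor of dorsal relay neurons, by 5.95 ± 0.41. Other leading genes came from few cells. Uts1, which encodes the neuropeptide urotensin 1, had UMIs in 4 mutant, 7 heterozygote and 5 wild-type cells. For rasd4, a Ras-family GTPase, 72 of the 78 mutant UMIs lay in 1 cell.

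On the other side, en1b, the engrailed factor of V1 inhibitory interneurons, had 0 CPM in mutant, 0.571 CPM in heterozygote and 0 CPM in wild-type excitatory neurons, against 284 CPM, 386 CPM and 264 CPM in the inhibitory neurons of the same libraries. Its log2 fold change was -10.26 ± 0.35 (adjusted p = 0.00034). Pax2a, a determinant of GABA and glycine interneurons, had UMIs in 26 of 65 mutant, 39 of 70 heterozygote and 52 of 91 wild-type inhibitory neurons. It stood at 37.9 CPM in mutant, 12 CPM in heterozygote and 21.2 CPM in wild-type excitatory neurons, against 391 CPM, 456 CPM and 364 CPM in inhibitory neurons (log2 fold change -4.25 ± 0.33). Bhlhe22, a bHLH repressor of interneurons, was lower by the same measure (-4.23 ± 0.33), and so was foxd3, a forkhead factor of neural crest and some interneurons (-5.99 ± 0.42). Dmrt3a, which marks the dI6 class, had 0 CPM in mutant, 1.71 CPM in heterozygote and 0 CPM in wild-type excitatory neurons, but in mutant inhibitory neurons 79 of its 85 UMIs lay in 1 cell.

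Among the leading inhibitory genes were also genes of the floor plate and notochord, the signalling tissues at the ventral midline. The hedgehog ligand shha, the floor plate proteins of spon1b and ntn1b, and col9a1b, a collagen chain of notochord and cartilage, were all higher in inhibitory neurons, but in few cells: shha had UMIs in 3 mutant, 5 heterozygote and 4 wild-type inhibitory neurons, with 171 of 257 heterozygote UMIs in 1 of them. Without the heterozygote library the shha call was lost (log2 fold change -3.77, adjusted p = 0.061). The call of tal1, a factor of V2b interneurons and of blood, was lost without the wild-type library (adjusted p = 0.063). The other genes described here from the highest and lowest of this comparison passed under every alternative in which they were tested. Not all could be tested in each: with cells thinned to 3000 UMIs, 90 of 145 named or called list genes of this comparison were tested. Without cells of shared barcodes 136 of them were tested, and 7 lost the call.

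**Figure D2:**
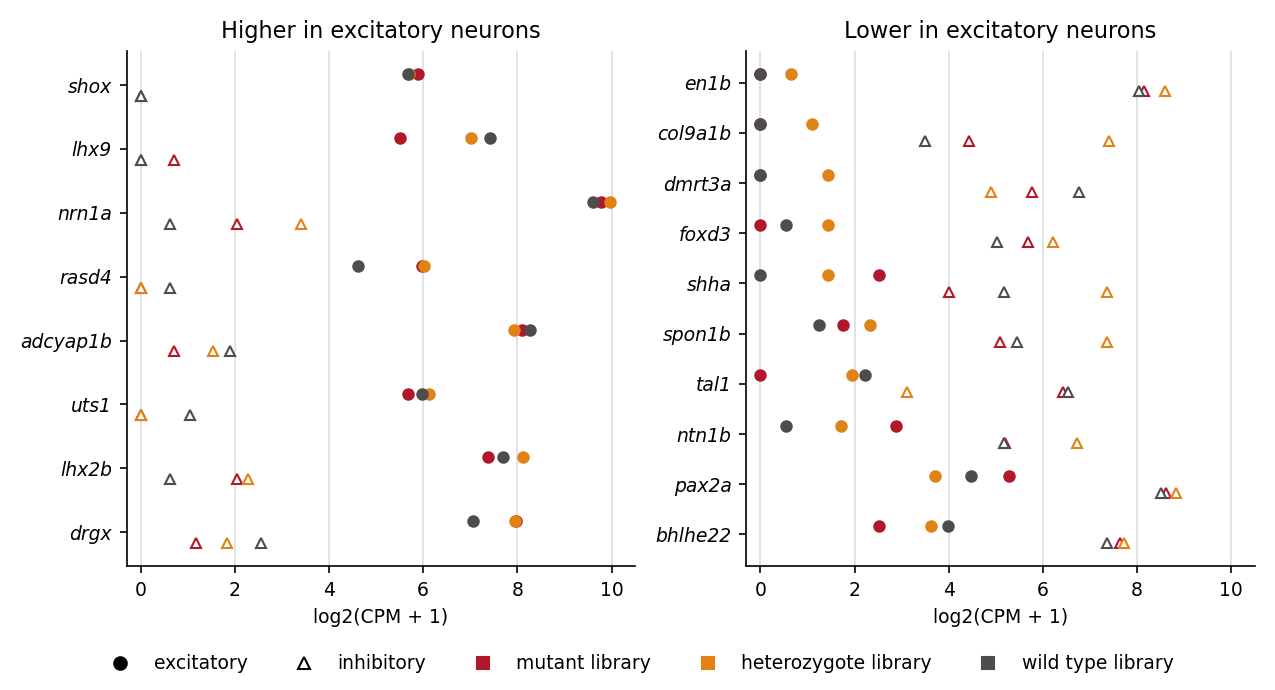
Summed level of 8 of the 10 genes with the highest (left) and of the 10 with the lowest (right) fold change between excitatory and inhibitory neurons, as log2(CPM + 1) on the horizontal axis. Filled circles are excitatory and open triangles inhibitory neurons, 1 per library, coloured by library; shox lay at 58.4, 50.8 and 50.3 CPM in mutant, heterozygote and wild-type excitatory neurons and at 0 in all 3 inhibitory sums, and en1b showed the opposite pattern.

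Factors from lists named for several developmental classes were higher in excitatory neurons. All 5 tested genes of the atoh1-derived class rose: besides lhx9 and lhx2b these were barhl2 (log2 fold change 3.18 ± 0.47), mab21l2 (1.90 ± 0.16) and the POU factor gene pou3f1 (0.98 ± 0.20), with 3 of 5 left without the heterozygote library. Against a share of 12.7% of all genes, both evx genes of the list for V0v excitatory commissural neurons were higher. Most cells with lhx9 also had evx2, as given below, so the atoh1-derived and V0v lists do not count separate groups of cells. Evx2 had 61.6 CPM in mutant, 32.5 CPM in heterozygote and 105 CPM in wild-type excitatory neurons, against 0, 1.28 and 3.25 CPM in the inhibitory neurons of those libraries (5.31 ± 0.45). From the list for the V2a class of excitatory interneurons, lhx4, sox14 (4.82 ± 0.41) and shox2 rose, sox21a fell (-1.50 ± 0.35) and vsx1 did not pass (1.41 ± 0.80). Most cells with shox2 did not have lhx4 or sox14, as given below. Lhx4, a LIM-homeodomain factor, was at 0 UMIs in all inhibitory neurons and so at least 27.0-fold higher. Shox2, the gene that the mutation targets, was itself mostly an excitatory gene, with 22.1 CPM in mutant, 59.4 CPM in heterozygote and 51.7 CPM in wild-type excitatory neurons, against 0, 3.83 and 0.541 CPM in inhibitory ones (4.90 ± 0.51).

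In the list of tlx and lmx1b classes, dorsal excitatory neurons of sensory relay, 5 of 7 tested genes rose. Tlx2, a homeodomain factor, had 189 CPM in mutant, 294 CPM in heterozygote and 123 CPM in wild-type excitatory neurons, against 9.42, 17.2 and 6.49 CPM in inhibitory neurons of the same libraries (4.12 ± 0.16, adjusted p = 0.00034). Drgx, lmx1bb (3.25 ± 0.29), lmx1ba (2.86 ± 0.34) and tlx3b (2.60 ± 0.61) rose with it, and lbx1b fell (-1.79 ± 0.31). A further list of dorsal factors was divided, with 2 of 4 tested genes higher and 2 lower. Pou4f2 (4.94 ± 0.47) and pou4f1 (3.43 ± 0.42), POU factors of sensory and projection neurons, rose, and foxd3 (-5.99 ± 0.42) and foxp4 (-1.41 ± 0.25) fell. Phox2a, a factor of visceral and noradrenergic neurons, was higher. It had 147 CPM in mutant, 138 CPM in heterozygote and 80.3 CPM in wild-type excitatory neurons, against 11.3, 7.66 and 4.87 CPM in inhibitory neurons. From the V3 list, uncx rose (1.15 ± 0.19), while nkx2.2a, nkx2.2b, nkx2.9 and uncx4.1 fell, of which 1 was left without the heterozygote library. Of 12 tested factors of inhibitory classes 8 fell, among them lhx5, lhx1a, pax2b and prdm13, and 1 rose, skor1b, a transcriptional corepressor of dorsal interneurons (1.39 ± 0.29). These lists were drawn up with earlier results of these data known, and their counts describe the cells.

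Hox genes were not called between the classes, which does not show that their levels were the same. Over all tested genes 12.7% were called higher and 15.7% lower, and on simulated counts 45.4% of 2-fold changes were recovered. None of 11 tested genes of Hox groups 1 to 5 was called between excitatory and inhibitory neurons by edgeR (adjusted p between 0.052 and 0.97), with 4 at an unadjusted p under 0.05, and none by DESeq2, with 2 at an unadjusted p under 0.05, while the median log2 fold change of the list was -0.34, against -0.0011 over all genes. Hoxb3a had 308 CPM in mutant, 333 CPM in heterozygote and 357 CPM in wild-type excitatory neurons, against 379, 429 and 325 CPM in inhibitory neurons of those libraries. Of 12 rhombomere genes, pbx4 and meis1b, homeodomain cofactors of Hox proteins, rose by under 0.5 on the log2 scale, and epha4a, cyp26b1 and cyp26c1 fell. The fold changes of cyp26b1 (-1.88) and cyp26c1 (-1.99), which degrade retinoic acid, turned to 0.98 and 0.21 with at least 2 slc17a6 UMIs, neither of them called, and in the wild-type library cyp26c1 had 6.003 CPM in excitatory and 3.79 CPM in inhibitory neurons. Both higher calls were lost without the heterozygote library, without the wild-type library, without the block and with DESeq2, and all 3 lower calls without the heterozygote library or the block.

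Pan-neuronal genes were higher and progenitor genes lower in excitatory neurons. Of 20 pan-neuronal genes tested, 19 rose, with a median log2 fold change of 1.16. Gap43, a growth cone protein, had 2052.6 CPM in mutant, 2024 CPM in heterozygote and 1149 CPM in wild-type excitatory neurons, against 183, 617 and 348 CPM in inhibitory neurons (2.2 ± 0.35), and elavl4, an RNA-binding protein of postmitotic neurons, had 4159.7 CPM, 3334 CPM and 1999 CPM in excitatory neurons of the mutant, heterozygote and wild-type libraries (1.80 ± 0.51). In the opposite direction, 14 of 15 progenitor genes fell, with a median of -1.91, and hes6 did not pass (-0.19 ± 0.11). The neural progenitor factor sox2 had 27.6 CPM in mutant, 18.3 CPM in heterozygote and 22.6 CPM in wild-type excitatory neurons, against 99.9, 110.5 and 66.6 CPM in inhibitory neurons (-2.07 ± 0.23). The replication factor pcna had 334, 280 and 236 CPM in mutant, heterozygote and wild-type excitatory neurons, against 1101, 642 and 654 CPM in inhibitory neurons (-1.55 ± 0.14). The pan-neuronal count depended on the elavl3 minimum: with at least 5 UMIs required in both classes, which left 43 mutant, 81 heterozygote and 119 wild-type excitatory neurons, 3 of these genes were called, against 11 of the progenitor genes. The pan-neuronal count was also 9 without the heterozygote library and 12 without the wild-type library.

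Between progenitor and neuron, the 15 tested genes of committed precursors were divided. The EBF factor gene ebf3a rose most, with 960 CPM in mutant, 875 CPM in heterozygote and 822 CPM in wild-type excitatory neurons, against 197, 245 and 298 CPM in inhibitory neurons (1.78 ± 0.16), and ebf2 (0.58 ± 0.12) and onecut1 (0.55 ± 0.11) rose less. The Notch ligand genes dla (-2.09 ± 0.54), dlb (-1.43 ± 0.22) and dld (-1.83 ± 0.43) fell together with insm1b, neurod1, ascl1b and nhlh2. Of 20 genes of synaptic vesicles and release 12 rose, among them syn2a (1.60 ± 0.26), sv2bb (1.80 ± 0.50) and syt11a (1.12 ± 0.15), with 2 left at the elavl3 minimum of 5 UMIs, 4 without the heterozygote library and 6 without the wild-type library. Of 8 ion channel genes 5 rose, led by the calcium channel gene cacna1ba (2.05 ± 0.59), but 0 were called at the stricter elavl3 minimum or without the heterozygote library. Of 8 tested genes of GABA and glycine receptors and of gephyrin, which serve the receiving side of inhibitory synapses, 4 rose: the glycine receptor gene glrbb (1.65 ± 0.27), the gephyrin genes gphnb (1.43 ± 0.32) and gphna (1.33 ± 0.28), and gabbr1b. The glycine receptor genes glra4a (1.13 ± 0.51) and glra3 (-0.46 ± 0.26) did not pass. In this list 0 genes were called at the elavl3 minimum of 5 UMIs, 2 without the heterozygote library and 1 without the wild-type library.

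Of 23 axon guidance receptor genes tested, 5 were called higher and 3 lower, against 12.7% higher and 15.7% lower over all tested genes. Robo3, the receptor that commissural neurons need to cross the midline, had 479 CPM in mutant, 583 CPM in heterozygote and 652 CPM in wild-type excitatory neurons, against 151, 220 and 332 CPM in inhibitory neurons of those libraries (1.26 ± 0.15, adjusted p = 0.0057). Robo2 (2.33 ± 0.32), ret (2.03 ± 0.38), l1cama (1.97 ± 0.35) and l1camb (2.00 ± 0.39) rose as well, while epha7 (-1.26 ± 0.17), nrp2b (-1.33 ± 0.23) and epha4a (-0.78 ± 0.14) fell, and the other 15 of 23 were not called. Among neuropeptide genes, adcyap1b, scg2b (2.14 ± 0.29) and scg3 (1.04 ± 0.25) rose of 6 tested. Tac1, the gene of substance P, was not called (1.78 ± 1.47): 193 of 214 UMIs in heterozygote inhibitory neurons lay in 1 cell.

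Stress genes were lower in excitatory than in inhibitory neurons. Ccng1, a cyclin G gene that responds to DNA damage, had 666 CPM in mutant, 587 CPM in heterozygote and 142 CPM in wild-type excitatory neurons, against 1326, 983 and 277 CPM in inhibitory neurons (-0.98 ± 0.11). It was lower in the wild-type library than in the other libraries in both classes, and it was not called without the library block. Of 11 immediate early and dissociation genes 6 fell, led by fosab (-1.84 ± 0.19) and btg2 (-1.74 ± 0.18), with 3 left without the heterozygote library. The keratin gene krt5 was called higher (2.66 ± 0.78), but not after leaving out cells with at least 1% of UMIs from skin genes (0.09, adjusted p = 0.85), which removed 1 heterozygote and 1 wild-type excitatory neuron.

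The excitatory neurons were also set against the 204 neurons that had slc17a6 but were kept out for isl1, six1b or eya1. Hox cofactor, Hox and interneuron genes were among those higher in excitatory neurons, and ganglion genes were lower. Since the rule used isl1, six1b and eya1 to part these groups, genes that accompany them had to differ. By the same edgeR test 377 of 8403 genes (4.49%) were higher and 594 (7.07%) were lower. Of these excluded neurons, 27 of 65 mutant, 6 of 52 heterozygote and 50 of 87 wild-type cells had a barcode that another library shared, and without all such cells 315 genes were called in place of 971. Of 99 named or called list genes tested without them, 51 lost the call, and not all of these are named. Of 27 counts of called genes per list, 20 moved by more than 1.5-fold. Of the higher genes named below, hoxb3a, hoxa4a, hoxc1a, meis1b, lhx2b, pou3f1 and tac1 were still called without them. The calls of hoxd3a (adjusted p = 0.064), egr2a (0.060), egr2b (0.15), lhx9 (0.15), vsx1 (0.12) and pou4f2 (0.16) were lost, with no change of direction.

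Meis1b, the Hox cofactor, had 494 CPM in mutant, 558 CPM in heterozygote and 625 CPM in wild-type excitatory neurons, against 79.8, 108 and 225 CPM in the excluded neurons of those libraries (2.11 ± 0.21). Of 11 Hox genes 4 rose, namely hoxd3a (2.68 ± 0.40), hoxc1a (1.83 ± 0.21), hoxa4a (1.67 ± 0.19) and hoxb3a (1.31 ± 0.17), and the count was 4 without any 1 of the libraries. Hoxb3a stood at 125 CPM in mutant, 96.7 CPM in heterozygote and 181 CPM in wild-type excluded neurons, below every value in excitatory neurons. Of 12 rhombomere genes 6 rose, among them egr2a and egr2b, the Krox20 factors of rhombomeres, and 1 fell, cyp26b1. Without the shared barcodes 2 of these 12 were called higher. Foxg1a, a factor of the telencephalon and of placodal neurons, fell, with 0.790 CPM in mutant, 16.6 CPM in heterozygote and 0 CPM in wild-type excitatory neurons, against 142, 146 and 100.04 CPM in excluded neurons (-4.69 ± 0.68).

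Interneuron factors were again higher. Of the atoh1-derived class lhx2b (2.57 ± 0.31), lhx9 (2.18 ± 0.21) and pou3f1 (1.89 ± 0.18) rose among 5 tested, and vsx1 of the V2a class rose as well (2.89 ± 0.65). Evx1 (2.70 ± 0.60) and evx2 (1.67 ± 0.40) rose, with 0 of both called without the library block or without the shared barcodes. Shox2 was not called (-0.27 ± 0.19): it had 22.1 CPM in mutant, 59.4 CPM in heterozygote and 51.7 CPM in wild-type excitatory neurons, against 32.0, 52.8 and 70.2 CPM in excluded neurons. Pou4f2 rose (2.18 ± 0.45), while pou4f1, which sensory ganglia use, fell to 260 CPM in mutant, 75.4 CPM in heterozygote and 111 CPM in wild-type excitatory neurons, against 742, 424 and 452 CPM in excluded neurons (-2.03 ± 0.18). Of 6 tested genes of the dorsal tlx and lmx1b classes, lbx1a (2.76 ± 0.44), lmx1bb (2.56 ± 0.49) and lmx1ba (2.03 ± 0.50) were higher, tlx2 (-1.14 ± 0.27) and tlx3b (-2.86 ± 0.17), which ganglia share, were lower, and drgx was not called (-0.50 ± 0.19).

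The 6 highest genes of this comparison came from 4 to 24 excitatory neurons per library. Tac1 had 19.0 CPM in mutant, 63.4 CPM in heterozygote and 120.1 CPM in wild-type excitatory neurons, against 1.05, 0 and 2.40 CPM in excluded neurons (5.7 ± 0.45), from 4 mutant, 6 heterozygote and 5 wild-type cells. Plcxd3, a phospholipase domain gene (3.68 ± 0.55), and adcyap1r1a, a PACAP receptor gene (2.80 ± 0.35), came from 9 to 20 cells per library and lost the call without the shared barcodes (adjusted p = 0.13 and 0.070). The calls of uts1 (3.24 ± 0.77), of the glutamate receptor gene grm2b (3.52 ± 0.70) and of the neurotrophin receptor gene ntrk3b (2.75 ± 0.63) were each lost without 1 library: uts1 without the wild-type library (adjusted p = 0.083), grm2b without the heterozygote library (0.135) and ntrk3b without the mutant (0.089) or the heterozygote library (0.128).

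The lowest genes were those of sensory ganglia, for which 16 of 18 fell. Isl2b, a LIM-homeodomain factor of sensory neurons, had 1.58 CPM in mutant, 1.14 CPM in heterozygote and 0 CPM in wild-type excitatory neurons, against 456, 393 and 298 CPM in excluded neurons (-8.81 ± 0.33). Neurod1, which drives cranial ganglion neurons, had 11.8 CPM in mutant, 26.8 CPM in heterozygote and 13.4 CPM in wild-type excitatory neurons, against 1069.6, 985 and 1207 CPM in excluded neurons (-6.01 ± 0.29). Rgs5a, a regulator of G-protein signalling, was at 0 UMIs in every excitatory neuron and at least 198.7-fold lower, though its UMIs in excluded neurons lay in 4 mutant, 3 heterozygote and 4 wild-type cells. Of the others, eya4 (-7.88 ± 0.37), socs4 (-7.98 ± 0.45) and kctd12.2 (-7.89 ± 0.40) were spread over 22 to 44 excluded cells per library, and the ATP receptor gene p2rx3a (-9.20 ± 0.47) over 2 to 6. Chga, encoding a granule protein, fell as well (-4.97 ± 0.14).

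Within the excitatory neurons, transcription factor genes fell into combinations. The 4 sets below were drawn from these combinations after they were seen, so that counts per set are a description: cells with lhx9, evx1 or evx2, cells with pou4f2, tlx2 or drgx, cells with lhx4 or sox14, and cells with sim1a. The first set had 107 cells, the second 91, the lhx4/sox14 set 17 and the sim1a set 13, and the only overlap was of 2 cells with genes of the second and the lhx4/sox14 set. In all 107 cells belonged to the lhx9/evx set alone, 89 to the pou4f2/tlx2/drgx set, 15 to the lhx4/sox14 set and 13 to the sim1a set, while 2 had genes of more than 1 set and 27 of none.

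Of 85 cells with lhx9, 80 also had lhx2b, 63 evx2 and 30 barhl2. All 13 cells with sim1a, a bHLH-PAS factor of V3 and neuroendocrine neurons, had uncx and adcyap1b. Of 27 cells with shox, 26 had lmx1bb, 25 pou4f2, 22 phox2a and 18 shox2. Drgx occurred in 48 cells, of which 41 had pou4f2 and 41 lbx2, a ladybird homeodomain factor. Lhx2b crossed the sets: it was found in 132 cells, which is more than either of the 2 large sets holds. These are counts over cells from 3 libraries, and a gene of low level can be missed in a cell that has it.

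**Figure D3:**
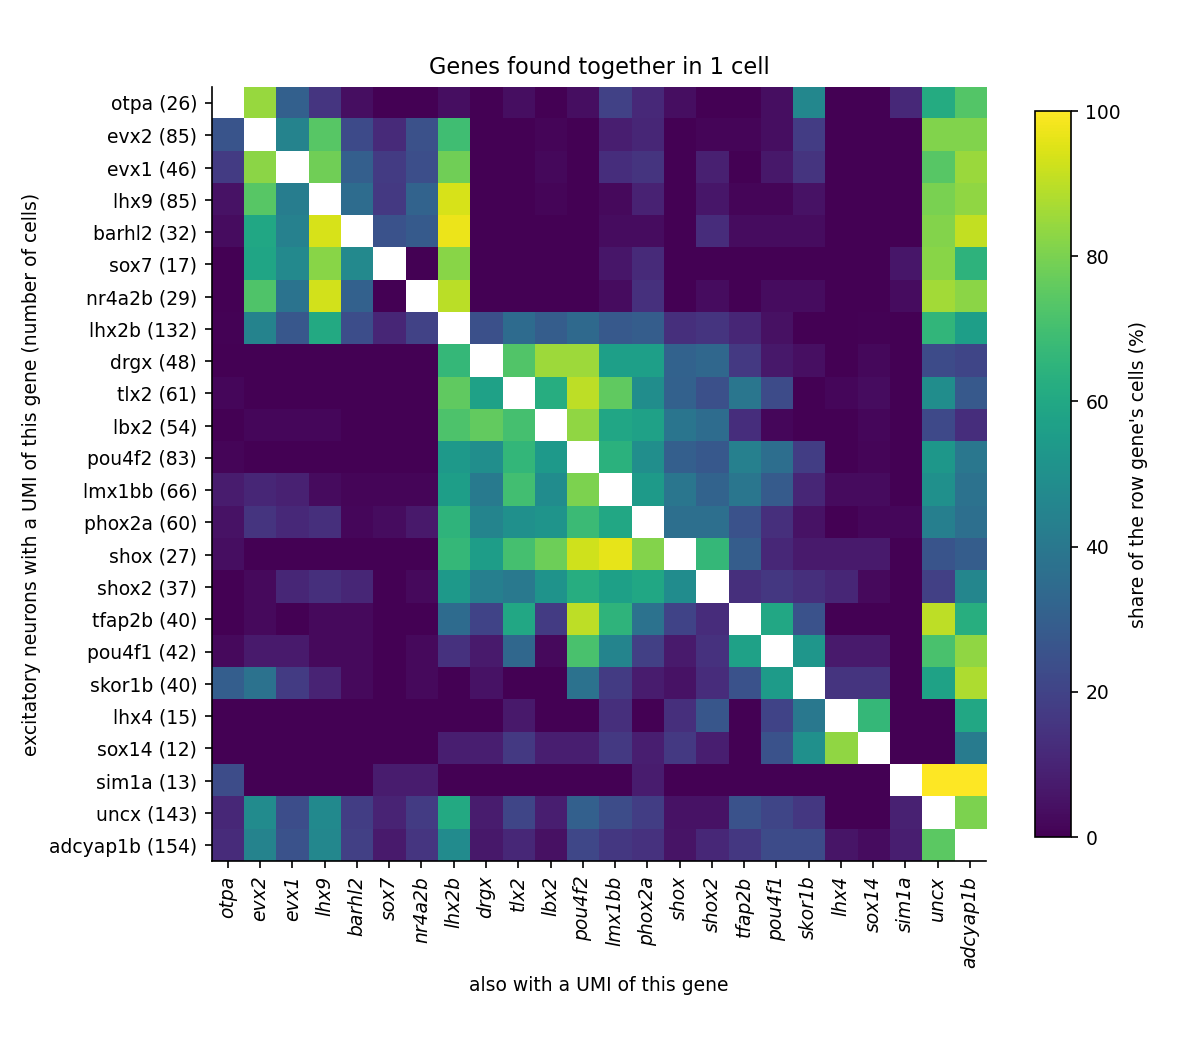
Co-detection of 24 genes in the 253 excitatory neurons. Each square gives the share (%) of cells with at least 1 UMI of the row gene (cell number in parentheses) that also had a UMI of the column gene; blocks for lhx9 with evx2 and lhx2b, and for pou4f2 with tlx2, drgx, lmx1bb and shox stand out, and all 13 sim1a cells had uncx and adcyap1b.

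The lhx9/evx set differed most in size between libraries. It held 12 of 47 mutant cells (25.5%, exact binomial interval 13.9 to 40.3%), 29 of 84 heterozygote cells (34.5%, 24.5 to 45.7%) and 66 of 122 wild-type cells (54.1%, 44.8 to 63.2%). The mutant and wild-type intervals did not overlap, although mutant cells were sequenced more deeply. After thinning to 3000 UMIs the share was 15.2% in the mutant, 26.8% in the heterozygote and 46.3% in the wild-type library, and without cells that shared a barcode between libraries it was 26.5%, 35% and 63.4% in these libraries. After thinning, cells of no set made up 50% of mutant (34.9 to 65.1%), 23.2% of heterozygote (14.6 to 33.8%) and 19.8% of wild-type cells (13.1 to 28.1%). The mutant and wild-type intervals of this remainder did not overlap in this 1 draw, whose own spread they leave out. Before thinning they were 19.1% of mutant, 8.33% of heterozygote and 9.02% of wild-type cells. The intervals of the pou4f2/tlx2/drgx set overlapped in the 3 libraries: it held 38.3% in the mutant (24.5 to 53.6%), 39.3% in the heterozygote (28.8 to 50.5%) and 31.1% in the wild-type library (23.1 to 40.2%). The lhx4/sox14 set had 4 mutant, 5 heterozygote and 6 wild-type cells. The sim1a set had 4 mutant cells (8.51%), 9 heterozygote cells (10.7%) and 0 of 122 wild-type cells, which allows a wild-type share of up to 2.98% for cells with a UMI of sim1a, not for cells that express it. After thinning it had 0 mutant, 4 heterozygote and 0 wild-type cells, so its presence in the mutant library was not seen at equal depth in this 1 draw. With 1 library each, a difference in share between genotypes cannot be told apart from one between pools of embryos, mixes of stages, dissections or transgenic backgrounds.

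**Figure D4:**
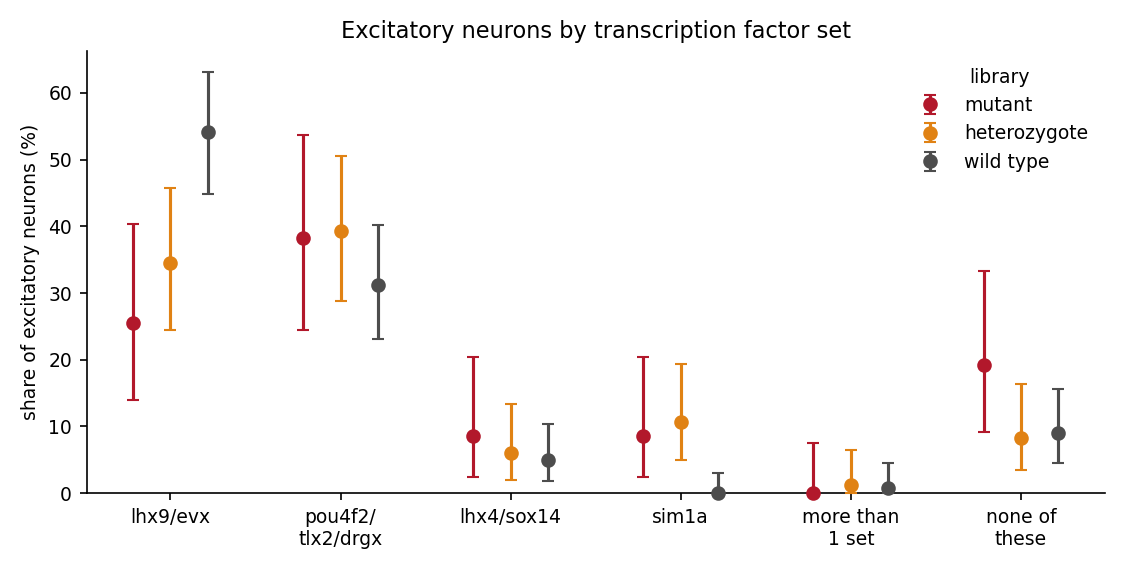
Share of excitatory neurons (%) in each transcription factor set, in the mutant, heterozygote and wild-type libraries. Points are shares and bars 95% exact binomial intervals; the lhx9/evx share was 25.5% in the mutant, 34.5% in the heterozygote and 54.1% in the wild-type library, and the sim1a share was 0 in the wild-type library.

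The sets had further genes that were not used to draw them, and those named here kept the direction of their ratio in all 3 libraries. In the lhx9/evx set otpa, an orthopedia homeodomain factor, had 1253 CPM in mutant, 378 CPM in heterozygote and 797 CPM in wild-type cells, against 0, 0 and 1.54 CPM in the pou4f2/tlx2/drgx set. Its paralog otpb, the forkhead gene foxp4 and the rhombomere gene egr2b were higher in the same set. Egr2b had 309 CPM in mutant, 131 CPM in heterozygote and 119.9 CPM in wild-type cells of the lhx9/evx set, against 25.5, 16.6 and 1.54 CPM in the pou4f2/tlx2/drgx set. Otpa was found in part of the set: 26 cells in all had it, 25 of them with otpb and 22 with evx2. Conversely lbx2 had 0 CPM in mutant, 0 CPM in heterozygote and 0.915 CPM in wild-type cells of the lhx9/evx set, against 871 CPM, 1116 CPM and 599.98 CPM in the pou4f2/tlx2/drgx set. Phox2a and the AP-2 factor genes tfap2a and tfap2b followed it. Shox stood at 0 UMIs in the lhx9/evx set of every library, against 145 CPM in mutant, 123 CPM in heterozygote and 165 CPM in wild-type cells of the pou4f2/tlx2/drgx set.

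Inside the lhx9/evx set, otp genes and lhx9 were found together in 0 mutant, 1 heterozygote and 4 wild-type cells. Cells with otpa or otpb numbered 5 of 47 in the mutant, 5 of 84 in the heterozygote and 20 of 122 in the wild-type library, and 3 mutant, 3 heterozygote and 17 wild-type cells of these had an evx gene. Cells with lhx9 and no otp gene numbered 6 in the mutant, 25 in the heterozygote and 49 in the wild-type library. Among the wild-type cells with lhx9 and no otp gene, sox7, a SoxF factor best known from blood vessels, was present in 14, and nr4a2b, an orphan nuclear receptor gene, in 13. No excitatory neuron had both sox7 and nr4a2b. Sox7 was found in 2 mutant, 0 heterozygote and 15 wild-type excitatory neurons, and nr4a2b in 3 mutant, 12 heterozygote and 14 wild-type ones, of which 27 of 29 had lhx9.

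Differentiation genes varied over the sets as well. Elavl4 stood at 3291 CPM in mutant, 1562 CPM in heterozygote and 974 CPM in wild-type cells of the lhx9/evx set, against 4806, 4562 and 3189 CPM in the pou4f2/tlx2/drgx set of the same libraries. Adcyap1b was detected in 87 of 107 cells of the lhx9/evx set, 36 of 89 of the pou4f2/tlx2/drgx set, 9 of 15 of the lhx4/sox14 set and all 13 of the sim1a set. Uncx was found in 82 lhx9/evx cells and in all 13 sim1a cells, but in 0 of 15 lhx4/sox14 cells. Skor1b, the inhibitory-class gene that was higher in excitatory neurons, was present in 15 cells of each of the 2 large sets, in 7 of 15 lhx4/sox14 cells and in 0 sim1a cells. The 27 cells of no set had lower slc17a6b than any other set in each library: it stood at 95.1 CPM in mutant, 69.8 CPM in heterozygote and 134 CPM in wild-type cells of that group, and elavl4 had UMIs in 10 of the 27.

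The sim1a cells stood apart in position markers. A UMI of otx1, otx2a, otx2b, foxg1a or emx2 was found in 1 of 4 mutant and 6 of 9 heterozygote cells of that set, of which 3 heterozygote cells had no Hox UMI. Meis1b, present in 102 of 107 lhx9/evx cells, was detected in 4 of these 13. Otpa was found in 1 mutant and 2 heterozygote cells, and th, the rate-limiting enzyme of dopamine synthesis, together with gch1, which makes its cofactor, in 1 mutant and 2 heterozygote cells. The 1 mutant cell had 27 UMIs of th, 27 of ddc, 288 of gch1, 402 of otpa and 11 of sim1a.

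The reporters could be read in the same cells. EGFP had 2 UMIs in the 47 mutant cells (1.58 CPM), 4099 CPM in heterozygote and 747 CPM in wild-type excitatory neurons, and DsRed had 0 UMIs in mutant cells, 45.1 CPM in heterozygote and 573 CPM in wild-type cells. At least 10 UMIs of EGFP were present in 0 mutant, 18 heterozygote and 35 wild-type cells. In the heterozygote library 14 of the 18 belonged to the lhx9/evx set, whereas in the wild-type library the 35 comprised 20 lhx9/evx, 4 pou4f2/tlx2/drgx and 5 lhx4/sox14 cells besides 1 with genes of more than 1 set and 5 with none. The 17 wild-type cells with an otp and an evx gene all had at least 10 EGFP UMIs, while only 3 of 49 wild-type cells with lhx9 and without otp did, against 13 of 25 such heterozygote cells. The driver of EGFP in the heterozygote library is not given in the sources used here, so the EGFP values of these libraries are not comparable as levels of 1 promoter.

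Shox2 itself was detected in 4 mutant, 19 heterozygote and 14 wild-type excitatory neurons. Of these, 4 mutant, 11 heterozygote and 8 wild-type cells were in the pou4f2/tlx2/drgx set and 0 mutant, 2 heterozygote and 2 wild-type cells in the lhx4/sox14 set. In the lhx9/evx set it was found in 0 of 12 mutant, 5 of 29 heterozygote and 0 of 66 wild-type cells. The mutant level of 22.1 CPM (exact Poisson interval 14.7 to 32.0) lay below those of 59.4 CPM in the heterozygote (48.5 to 71.9) and 51.7 CPM in the wild-type library (42.6 to 62.2). Of the 28 mutant UMIs 15 lay in 1 cell, and without it the level was 10.46 CPM. Shox2 UMIs were thus present in the library labelled mutant. The allele lacks parts of the first exons and the kit reads the other end of the transcript, and whether these UMIs came from the deletion allele was not tested. Shox was not lower in mutant cells, with 58.4 CPM in the mutant, 50.8 CPM in the heterozygote and 50.3 CPM in the wild-type library.

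The libraries were then compared gene by gene within the excitatory neurons, as ratios of CPM, for genes that reached 50 CPM in either library of the pair. Mutant over wild type, 179 of 2868 genes (6.24%) were at least 2-fold higher and 58 (2.02%) at least 2-fold lower, with a median log2 ratio of 0.16 over all these genes. Ratios below are read against that shift. The largest ratios fell into 2 kinds: genes carried by 1 or a few cells, and genes spread over many.

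Of the 8 genes with the highest ratios, 5 were mainly the product of 1 cell each. Gch1 had 290 UMIs in the mutant and 4 in the wild-type library (log2 ratio 6.95), but 288 lay in the 1 mutant cell with th described above, which also held 415 of the 489 mutant UMIs of crhbp, a binding protein of corticotropin-releasing hormone. Aldh1a2, the retinoic acid synthesis enzyme, had 104 UMIs in 1 mutant cell and 0 in the wild-type library (at least 5.89 with the wild type set to 3 UMIs), and pvalb8, a parvalbumin gene, had 91 UMIs in 1 mutant cell and 0 in the wild-type library (at least 5.7). Of 179 mutant UMIs of s100a1, a calcium-binding protein gene, 140 lay in the deepest cell of all. Crhbp had a log2 ratio of 5.06 in excitatory neurons, and was detected in 9 mutant, 11 heterozygote and 2 wild-type cells.

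The other 3 were spread. Adh8b, an alcohol dehydrogenase gene, had 97.1 CPM in mutant and 100.5 CPM in heterozygote excitatory neurons, against 7.85 CPM in wild-type ones, and was found in 33 of 47 mutant, 47 of 84 heterozygote and 13 of 122 wild-type cells. Its log2 ratio mutant over wild type was 3.63 (exact interval 2.89 to 4.45), and in inhibitory neurons of the same libraries 2.57. Hspb1, a small heat shock protein gene, was detected in 24 mutant, 24 heterozygote and 7 wild-type cells (4.11, and 1.56 in inhibitory neurons), and the unnamed gene CR847906.1 in 21 mutant, 21 heterozygote and 7 wild-type cells (4.27, and 3.82 in inhibitory neurons). All 3 genes were lowest in the wild-type library, but only for adh8b did the heterozygote level stand near the mutant one. Hspb1 had 64.0 CPM in mutant, 26.3 CPM in heterozygote and 3.69 CPM in wild-type excitatory neurons. CR847906.1 had 62.4, 16.6 and 3.23 CPM in the same libraries. For inhibitory neurons only the mutant over wild-type ratio is given.

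Of the genes with the lowest ratios, 2 were reporters, for which the embryos of the libraries differed by design: DsRed had 0 mutant and 1242 wild-type UMIs and EGFP 2 and 1617 (log2 ratio -8.88). Sox7 had 2 mutant and 312 wild-type UMIs (-6.51), with 0 in the heterozygote library, and nr4a2b had 4 mutant and 128 wild-type UMIs (-4.23), with 46.2 CPM in the heterozygote library. Most wild-type cells with sox7 and all those with nr4a2b had lhx9, and the lhx9/evx set held 12 mutant and 66 wild-type cells. A pair of genes with no informative symbol were detected in fewer mutant cells: si:ch73-21g5.7 was found in 10 mutant, 20 heterozygote and 51 wild-type cells (-3.85, but -0.18 in inhibitory neurons), and zgc:55733 in 11 mutant, 27 heterozygote and 78 wild-type cells (-2.43, and -1.05 in inhibitory neurons). Tac1 (-2.66) rested on 4 mutant and 5 wild-type cells and changed sign when the rule was applied to thinned cells (1.30). Only 11 of the genes with the highest or lowest ratios could be compared under that setting. Of these, 3 stayed inside their main counting interval, 7 moved outside it with the same sign and 1 changed sign. For krt5 (-2.45), 230 of the 243 wild-type UMIs lay in 1 cell with skin genes.

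**Figure D5:**
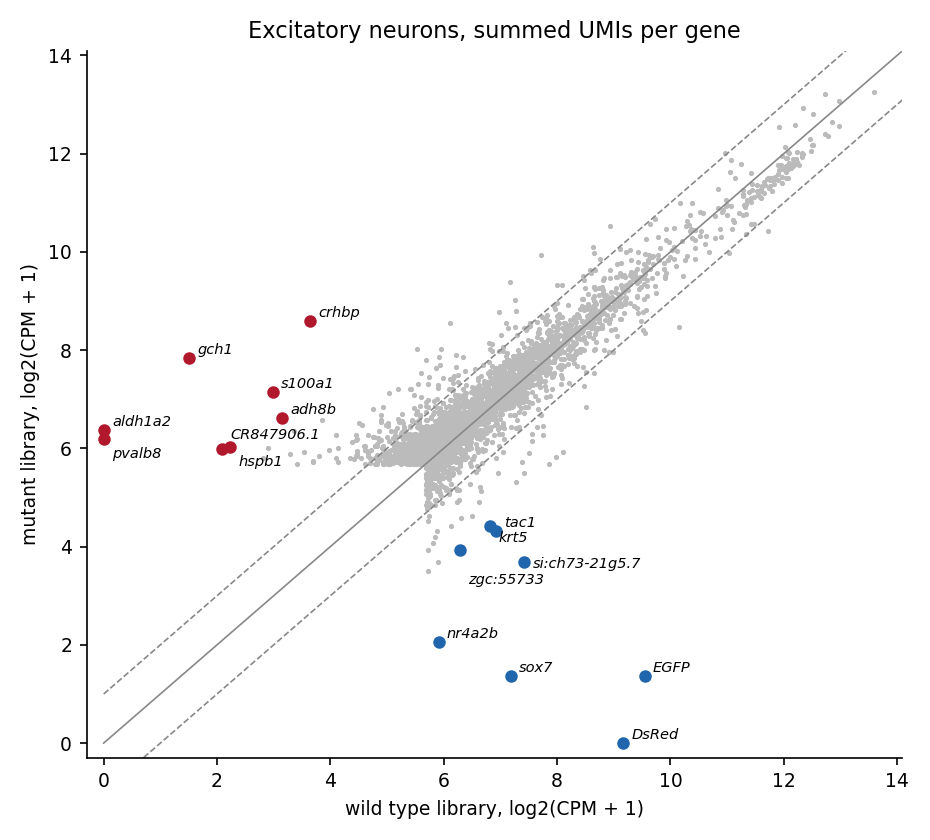
Summed level of each gene with at least 50 CPM in the mutant or wild-type library, in mutant (vertical) against wild-type (horizontal) excitatory neurons, both as log2(CPM + 1). The solid line marks equal levels and dashed lines a 2-fold difference; red points are the 8 genes with the highest and blue points the 8 with the lowest ratio, from gch1 (6.95) and crhbp (5.06) to sox7 (-6.51) and EGFP (-8.88).

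Of listed genes, ccng1 had a log2 ratio mutant over wild type of 2.23, against 2.26 in inhibitory neurons. Ccng1 was detected in all 47 mutant, 82 of 84 heterozygote and 101 of 122 wild-type excitatory neurons. Of the atoh1-derived genes 2 of 4 were at least 2-fold lower (median -0.75), with lhx9 at -1.93. From the V2a list sox14 (-2.33) and shox2 itself (-1.23) were lower. Sox14 came from 2 mutant and 5 wild-type cells, with 12 of its 13 mutant UMIs in 1 cell. Shares of cells gave no steady direction. After thinning, 21.7% of mutant (10.9 to 36.4%) and 17.4% of wild-type cells (11.1 to 25.3%) had a gene of the V2a list, which includes shox2, with intervals that overlapped. With at least 2 UMIs of the list these shares were 6.52% and 12.4%. The lhx4/sox14 set held 8.51% of mutant and 4.92% of wild-type cells before thinning, and 4.35% and 4.96% after it. The 17 genes of synaptic vesicles had a median of 0.65 and the 19 pan-neuronal genes one of 0.21, with 0 and 1 genes past the 2-fold limit.

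In heterozygote over wild type, 108 of 2718 genes (3.97%) were at least 2-fold higher and 43 (1.58%) lower, and in mutant over heterozygote 46 of 2819 (1.63%) were higher and 26 (0.922%) lower. Ccng1 was higher in both deletion carriers than in wild type, with a log2 ratio of 2.04 in heterozygote over wild type and of 0.18 in mutant over heterozygote. These comparisons share libraries, and the wild-type library differed from the other pair in transgenes as well as in genotype. For part of the Hox genes the heterozygote library was the one apart: 2 of 5 genes were at least 2-fold lower in heterozygote than in wild type (median -0.95), and 3 of 5 higher in mutant than in heterozygote (1.26). For hoxb3a, the Hox gene with the highest level, the heterozygote value lay between the mutant and wild-type values. Hoxa4a had 119 CPM in mutant, 33.7 CPM in heterozygote and 112 CPM in wild-type excitatory neurons, and hoxb5b 97.1, 22.3 and 105 CPM in the mutant, heterozygote and wild-type cells. The hindbrain factor phox2bb was also lowest in the heterozygote library, with 103 CPM in mutant, 19.4 CPM in heterozygote and 75.3 CPM in wild-type cells, but 87 of 130 mutant and 32 of 34 heterozygote UMIs of it lay in 1 cell each. Without the highest cell of each library phox2bb stood at 34.6 CPM in mutant, 1.15 CPM in heterozygote and 49.3 CPM in wild-type cells, and hoxb5b at 68.5, 9.82 and 84.8 CPM in the mutant, heterozygote and wild-type cells. The heterozygote library was also the one with the 7 cells that had forebrain or midbrain genes and no Hox UMI. The part of those cells in these ratios was not tested.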

How the data were processed

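Cells of 3 libraries, 1 per genotype, were dissociated from tissue around the otic vesicle and sequenced with a 10x 3′ kit. The authors aligned and counted reads with Cell Ranger 4.0.0 against a zebrafish genome (GRCz11 per the processing notes) with DsRed and EGFP added, and the deposited matrices hold raw UMI counts per gene and barcode. Library totals were 148362555 (mutant), 173922327 (heterozygote) and 182627128 (wild type) UMIs over 8877, 10419 and 10466 barcodes. The 25109 feature rows were summed to 24454 symbols. Cells were kept and classed by the rule given in the text. No doublet caller was run, and an alternative left out the 8% of cells with the most UMIs.

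Counts were summed per library and class. Excitatory neurons were compared with inhibitory and with excluded slc17a6 neurons by edgeR 4.0.16 (TMM, filterByExpr, quasi-likelihood test, R 4.3.3) with the library as a block, since the sums of 1 library share their embryos. P-values measure only the spread between these 3 libraries. On simulated counts with the same libraries, 45.4% of 2-fold and 99% of 4-fold changes were recovered for inhibitory neurons, and 53.2% and 97.9% for excluded neurons. An SE is the log2 fold change divided by the root of F. Between libraries no test was made: log2 CPM ratios have exact conditional binomial intervals, shares exact Clopper-Pearson intervals and levels exact Poisson intervals, all 95% and covering counting error only. A class at 0 was set to 3 UMIs.

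Named genes were those of 34 fixed lists (427 of 441 genes found), the 8 highest and 8 lowest mutant over wild-type ratios at 50 CPM or more, and the 10 (inhibitory) or 6 (excluded) highest and lowest called genes with a mean of at least 20 CPM. Genes of the transcription factor sets, the subgroups and the anterior genes were chosen after their values were seen. The members and lists were chosen with earlier results of these data known. Alternatives were DESeq2 1.42.0, median-of-ratios scaling, no count filter, no block, each library left out, other limits for elavl3, slc17a6, CPM, fold and mitochondrial UMIs, and thinning. Leaving out cells with skin genes or with barcodes shared between libraries was added after seeing the data. Results of some genes are not reported here.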

Additional observations from a re-analysis of the deposited data

Results flagged for a closer look

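For crhbp, the mutant over wild-type log2 ratio was 5.06 in excitatory neurons and -1.56 in inhibitory neurons, so that each class moved the opposite way. The difference between the classes was not tested. Of 489 mutant UMIs in excitatory neurons 415 lay in 1 cell.

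For krt5, the ratio was -2.45 in excitatory neurons and 1.44 in inhibitory neurons. This difference was not tested either, and 230 of 243 wild-type UMIs in excitatory neurons lay in 1 cell.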

How the results depend on the processing

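Against inhibitory neurons 2297 genes were called. The count was 1333 with DESeq2, 3483 with any count, 1747 with no replicate block, 748 to 1963 with 1 library left out, 405 with at least 5 elavl3 UMIs, 953 with at least 2 slc17a6 UMIs and 617 with thinned cells. Against excluded neurons 971 genes were called, with 2048 for any count, 758 without the block, 423 to 1044 with 1 library left out, 543 without the 8% deepest cells, 239 with thinned cells and 315 without shared barcodes. The number of genes tested changed too. Against inhibitory neurons 7425 were tested with at least 5 elavl3 UMIs and 2768 with thinned cells. Without the 8% deepest cells 7545 were tested and 2400 called. Against excluded neurons 8292 were tested and 1152 called with at least 5 elavl3 UMIs, and 7875 and 1284 with at least 2 slc17a6 UMIs. The cause of the shifts was not tested. At slc17a6 of at least 2 UMIs the fold changes of myt1b (-0.013), cyp26b1 (0.98) and cyp26c1 (0.21) against inhibitory neurons turned sign, and for the rule applied to thinned cells so did the mutant over wild-type ratio of tac1 (1.30).

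The share of excitatory neurons was 6.85% in the heterozygote and 6.72% in the wild-type library with at least 5 elavl3 UMIs, 3.98% and 3.72% with at least 2 slc17a6 UMIs, and 4.16% in the wild-type library with at least 2 elavl3 UMIs and 7.44% with the rule on thinned cells. Shares of cells with a list gene moved as follows. Without thinning they were, in mutant, heterozygote and wild type, for atoh1-derived genes 80.9%, 90.5% and 95.1%, V2a genes 42.6%, 38.1% and 28.7%, Hox genes 93.6%, 75% and 86.1%, and evx genes 25.5% in the mutant and 49.2% in the wild-type library. Requiring 2 UMIs of the list gave 75.2% for atoh1-derived genes in the wild-type library, 2.44% (heterozygote) and 17.4% (wild type) for evx genes, 6.52% for V2a genes in the mutant library and 37.0%, 39.0% and 52.1% for Hox genes. With at least 2 slc17a6 UMIs the heterozygote shares were 84.1% for atoh1-derived and 6.35% for evx genes. With the rule on thinned cells they were 7.5% for evx and 42.5% for Hox genes. The mutant Hox share was 71.8% without the 8% deepest cells and 69.7% without shared barcodes, and the wild-type evx share 39.5% without shared barcodes. Where a setting changed the cells, their UMIs were thinned in a new random draw. Such a shift therefore mixes the draw with the change of cells. Wild-type cells with a UMI of an evx gene, for example, numbered 32 of 121 in the main draw and 32 of 81 without shared barcodes.

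Genes at least 2-fold higher and lower in mutant over wild type numbered 443 and 249 with the rule on thinned cells, 454 and 137 at 20 CPM, 84 and 31 at 100 CPM, and 510 and 168 at 1.5-fold, with 89 lower under median-of-ratios scaling. In heterozygote over wild type they numbered 408 and 247, 238 and 120, 58 and 18, and 282 and 133 under those 4 settings, and 191 and 79 without shared barcodes. In mutant over heterozygote they numbered 387 and 402, 161 and 71, 21 and 17, and 174 and 58. The 47 mutant cells gave 1266196 UMIs in sum, where a level of 62.4 CPM (CR847906.1) stood for 79 UMIs. The part of depth in these counts was not tested.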

Other observations

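Tac1 and uts1, both neuropeptide genes, were counted in few excitatory neurons in every library, tac1 in 4 mutant, 6 heterozygote and 5 wild-type cells and uts1 in 4 mutant, 7 heterozygote and 5 wild-type cells. Their UMIs were concentrated further: the richest cell held 20 of 24 mutant, 69 of 111 heterozygote and 122 of 260 wild-type UMIs of tac1, and 42 of 64 mutant, 52 of 121 heterozygote and 81 of 134 wild-type UMIs of uts1. The replication gene pcna had a UMI in 31 mutant, 59 heterozygote and 74 wild-type excitatory neurons.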
